A study of Mus musculus with 10 samples.

Results

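Capn11, Nrep and Plxdc1 are 3 genes whose E2 (estradiol) response was not alike in the 2 genotypes, OVX WT and OVX Het-Met, in RNA-seq of the ventral hippocampus (vHpc). They were chosen by their measured interaction, the difference between the E2 effects of the genotypes, which was called in these same libraries. This was out of 24421 gene symbols, of which 15081 were tested. None of the 3 is a marker gene of the choroid plexus, whose leading gene is Ttr. That does not set them apart, since 0 of the 15 such markers used here were called in the interaction. In all, 11 of 15081 genes were called in that interaction (0.0729%), of which 8 were lower (0.053%, Capn11 among them) and 3 were higher (0.0199%, with Nrep and Plxdc1). These counts are how the genes were chosen, so their levels by group are given below as a description, with no test. Tests are given for 3 measures that the choice did not use directly: the E2 effect over both genotypes, the genotype effect over both treatments, and the relation to Ttr among libraries of the same group.

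All mice were young adult females on a C57BL/6 background that had been ovariectomized (OVX), so no group had ovaries. WT mice carried only the normal Bdnf gene, and Het-Met mice carried 1 copy of a knock-in Met allele of this neurotrophin gene in every cell. After 2 weeks of recovery they drank water with 0.1% ethanol as vehicle, or the same with 300 nM E2 (0.7 µg per day), for 6 weeks. There were 10 libraries, each from the pooled RNA of 2 animals. OVX WT mice gave replicates 1 and 3 with vehicle and replicates 1 and 2 with E2, and OVX Het-Met mice gave 3 replicates with each treatment. Values are CPM, reads per 1000000 reads counted on genes.

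Capn11 encodes a calpain, a protease switched on by calcium, and is best known from the testis. Calpains cut a limited set of sites in their target proteins, and in neurons the widely expressed calpains act in synaptic remodelling and in injury. Nrep encodes a small neuronal protein that is abundant in brain, is raised in regrowing neurons and has been tied to the production of TGF-beta. Plxdc1 encodes a membrane protein with a plexin-like domain, known from the vessel lining of tumours and as a receptor for the secreted factor PEDF, which is encoded by Serpinf1. Ttr encodes transthyretin, a carrier of thyroid hormone that choroid plexus epithelium makes in large amounts. The choroid plexus lies in the ventricle beside the hippocampus, and its amount in a dissected piece can vary.

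In GRCm38 (mm10) the 3 genes lie apart from each other, all on the minus strand. Capn11 spans chr17:45630204-45659325 with 2 annotated transcripts, whose exons cover 2708 bases in 23 blocks. Plxdc1 spans chr11:97923238-97986444 with 4 transcripts and 4836 exonic bases in 14 blocks. Plxdc1 is overlapped by 2 annotated genes, Gm11633 on the opposite strand and Gm22461 on the same strand, and reads of these places could be shared. Nrep, on yet another chromosome, has 4 transcripts and 3908 exonic bases in 3 blocks. No annotated gene overlapped Capn11 or Nrep.

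Of the 3 genes, 1 had an entry in the RefSeq promoter table used, and it is the gene with the widest range. The 250 bases before the RefSeq start of Capn11 (GRCm38.p6, chr17:45659310-45659559, minus strand) are shown. This window overlaps the end of the Capn11 span given above, chr17:45630204-45659325, which came from GENCODE and has another start. The letters run 5′ to 3′, with capitals marking a GC box:
Capn11: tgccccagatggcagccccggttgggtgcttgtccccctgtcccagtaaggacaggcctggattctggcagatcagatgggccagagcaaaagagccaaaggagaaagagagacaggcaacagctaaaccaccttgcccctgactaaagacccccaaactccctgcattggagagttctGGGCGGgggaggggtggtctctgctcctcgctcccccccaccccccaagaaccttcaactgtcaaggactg
The GC box GGGCGG was found 1 time, 71 bases before the RefSeq start. Of 32851 promoter windows of this length, 32.7% held it on one strand or the other. The full estrogen response element, GGTCA and TGACC with 3 bases between, was not matched on either strand (0.0639% of windows held it), nor was the shorter GGTCA (35.2%), which lies inside the full element. The cyclic AMP response element TGACGTCA (1.55%) and the TGACG within it (17.8%) were not matched either. These are descriptions of letters in this window and not of factor binding.

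Capn11 was low in vehicle-treated OVX WT mice and high after E2, and in OVX Het-Met mice it was the other way round. It was at 0.416 and 0.942 CPM in vehicle-treated OVX WT libraries, from 9 and 19 reads, and at 5.88 and 11.8 CPM in E2-treated OVX WT libraries, from 131 and 274 reads. The OVX Het-Met libraries had 3.23, 4.14 and 5.43 CPM with vehicle (68, 82 and 117 reads) and at 0.391, 1.15 and 3.60 CPM with E2 (8, 25 and 76 reads). Both E2-treated WT libraries were thus above every other library, while the Het-Met groups overlapped because replicate 3 of the E2-treated mice lay inside the range of the vehicle-treated ones. The lowest library, E2-treated OVX Het-Met replicate 1, had an exact Poisson 95% interval of 0.169 to 0.771 CPM, which covers counting error only.

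As group means, Capn11 was at 0.679 ± 0.371 CPM in vehicle-treated and 8.83 ± 4.17 CPM in E2-treated OVX WT libraries (SD, n = 2 for each), 13.0-fold higher with E2. In OVX Het-Met libraries it was at 4.26 ± 1.11 CPM with vehicle and 1.72 ± 1.68 CPM with E2 (SD, n = 3 for each), 2.48-fold lower with E2. In order from low to high the groups were vehicle-treated WT, E2-treated Het-Met, vehicle-treated Het-Met and E2-treated WT. The first and the second overlapped, as did the second and the third, and the closest libraries of the third and the fourth, at 5.43 and 5.88 CPM, were nearer than 1 SD of either. Between genotypes, vehicle-treated Het-Met mice had 6.28-fold more than vehicle-treated WT mice, and E2-treated WT mice had 5.14-fold more than E2-treated Het-Met mice. On the log2(CPM + 0.5) scale the E2 difference was 2.94 in WT and -1.36 in Het-Met mice, which gave the interaction of -4.31 (standard error 0.65) that chose the gene. This scale understates a gene so low: the interaction was -5.22 with a pseudocount of 0.1 and -3.61 with a pseudocount of 1.

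Nrep went the opposite way and over a narrow range, with 1.44-fold between its highest and its lowest library. It was at 85.3 and 83.4 CPM in vehicle-treated and at 66.3 and 65.8 CPM in E2-treated OVX WT libraries. In OVX Het-Met libraries it was at 81.2, 69.5 and 72.1 CPM with vehicle and at 91.8, 88.4 and 94.6 CPM with E2. E2-treated libraries were lower than vehicle-treated ones in WT and higher in Het-Met mice, and no pair of the 4 groups overlapped. Separation in a single pair was common, at 10.3% to 35.8% of all genes in the pairs counted below. The share of all genes separate in every pair was not counted. Vehicle-treated Het-Met replicate 1, at 81.2 CPM, came nearest to another group, 83.4 CPM being the lower of the vehicle-treated WT libraries.

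The group means of Nrep were 84.3 ± 1.39 and 66.0 ± 0.363 CPM among OVX WT libraries (SD, n = 2 for each), 1.28-fold lower with E2, and 74.3 ± 6.16 and 91.6 ± 3.12 CPM among OVX Het-Met libraries (SD, n = 3 for each), 1.23-fold higher with E2. In order they were E2-treated WT, vehicle-treated Het-Met, vehicle-treated WT and E2-treated Het-Met. The middle neighbours differed by 1.14-fold, with the Het-Met group having the widest spread. Under E2 the Het-Met mean was 1.39-fold that of WT. The log2 E2 differences were -0.35 in WT and 0.30 in Het-Met mice, and the interaction that chose the gene was 0.65 (standard error 0.11).

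Plxdc1 had the same direction as Nrep. It was at 29.2 and 25.0 CPM in vehicle-treated and at 22.1 and 21.8 CPM in E2-treated OVX WT libraries. In OVX Het-Met libraries it was at 19.1, 21.7 and 19.2 CPM with vehicle and at 29.2, 27.9 and 31.4 CPM with E2. Vehicle-treated WT and E2-treated Het-Met libraries were high and overlapped, while E2-treated WT and vehicle-treated Het-Met libraries were low, the closest of these being 21.8 and 21.7 CPM.

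The means of Plxdc1 were 27.1 ± 2.95 and 22.0 ± 0.233 CPM among OVX WT libraries (SD, n = 2 for each), 1.23-fold lower with E2, and 19.99 ± 1.48 and 29.5 ± 1.77 CPM among OVX Het-Met libraries (SD, n = 3 for each), 1.48-fold higher with E2. From low to high they were vehicle-treated Het-Met, E2-treated WT, vehicle-treated WT and E2-treated Het-Met. The lower neighbours differed by less than 2 SD of the Het-Met group and the upper neighbours overlapped. Vehicle-treated WT mice had 1.36-fold more than vehicle-treated Het-Met mice, and E2-treated Het-Met mice had 1.34-fold more than E2-treated WT mice. The log2 E2 differences were -0.29 and 0.55, and the interaction that chose the gene was 0.84 (standard error 0.14).

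**Figure D1:**
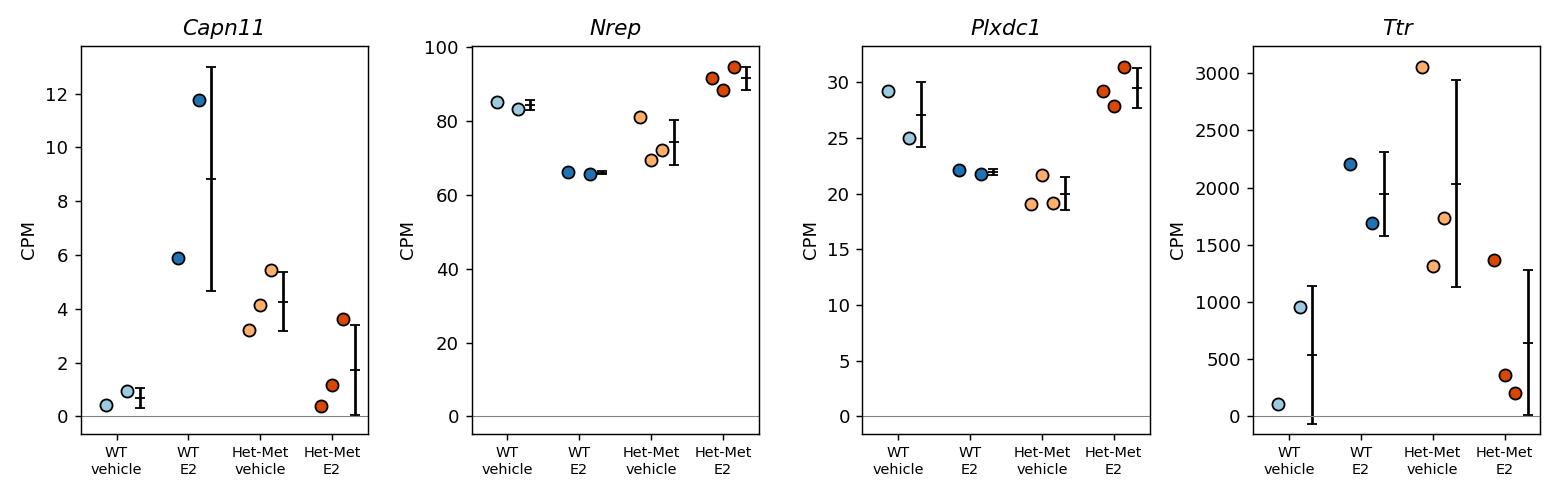
CPM of Capn11, Nrep, Plxdc1 and Ttr on the vertical axes, by group on the horizontal axes, with a point for each library and bars for the mean ± SD (n = 2 in WT and n = 3 in Het-Met groups). Capn11 is highest in E2-treated OVX WT libraries (5.88 and 11.8 CPM), while Nrep and Plxdc1 are highest in an E2-treated OVX Het-Met library (94.6 and 31.4 CPM) and low in E2-treated OVX WT libraries.

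Separation of libraries is common with so few of them. E2 and vehicle libraries did not overlap for 31.8% of all genes in WT, where all 3 genes were separate, and for 10.3% in Het-Met mice, where Nrep and Plxdc1 were. Genotypes did not overlap for 24.7% of genes under vehicle and 35.8% under E2, and all 3 genes were separate in both. Libraries separate in both genotypes and in opposite directions were found for 2.04% of genes, 1.09% lower in WT and higher in Het-Met mice, as Nrep and Plxdc1 were. All these counts follow from the contrast that chose the genes, and nothing is read from them. The choice ended at a threshold between Wdr63, the 11th gene (interaction -1.92), and Kcnj13, the 12th (interaction -3.33), which is a potassium channel gene of the choroid plexus.

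Per kilobase of exons, which allows levels of genes to be compared, Nrep was the highest of the 3, between 16.9 CPM per kb in E2-treated OVX WT and 23.4 CPM per kb in E2-treated OVX Het-Met mice. Plxdc1 was between 4.13 and 6.10 CPM per kb and Capn11 between 0.251 and 3.26 CPM per kb, as group means. Ttr was at 450.4 to 1716 CPM per kb. Capn11 was thus the scarcest of the 3 in every group, and the one with the fewest reads behind it.

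The E2 effect over both genotypes is the weighted mean of the E2 effects in WT (0.4) and Het-Met (0.6) mice. For each of the 3 genes it averages effects of opposite sign, -0.29 and 0.55 for Plxdc1. It does not show a shift that both genotypes share. With limma 0 of 15081 genes were called in it (0%), against 521 at an unadjusted p under 0.05 (3.45%), and edgeR called 0 genes and DESeq2 4 genes. None of the 3 genes was called by any of these tools. Plxdc1 was 0.21 higher on the log2 scale (95% interval 0.06 to 0.36), with an unadjusted p of 0.00831 and an adjusted p of 0.999704 from limma. Capn11 was 0.36 higher (95% interval -0.32 to 1.04) and Nrep 0.04 higher (95% interval -0.07 to 0.15), both with an adjusted p of 0.999704 from limma.

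The genotype effect over both treatments is the mean of the Het-Met against WT differences under vehicle and under E2. For each of the 3 genes these had opposite signs, -0.19 and 0.47 for Nrep. Their mean does not show a difference that both treatments share. With limma 4 of 15081 genes were called (0.0265%) and 2503 genes had an unadjusted p under 0.05 (16.6%), and none of the 3 genes was called. Nrep was 0.14 higher in Het-Met mice on the log2 scale (95% interval 0.03 to 0.26), with an unadjusted p of 0.0193 and an adjusted p of 0.210 from limma. Capn11 differed by -0.13 (95% interval -0.82 to 0.56, adjusted p of 0.881 from limma) and Plxdc1 by -0.01 (95% interval -0.16 to 0.15, adjusted p of 0.976 from limma). The sign of the Capn11 genotype difference was positive with edgeR (0.13) and DESeq2 (0.12).

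Ttr differed between the groups, and also between libraries of the same group. It was at 108 and 960 CPM in vehicle-treated and at 2205 and 1687 CPM in E2-treated OVX WT libraries. In OVX Het-Met libraries it was at 3055, 1316 and 1734 CPM with vehicle and at 1370, 362 and 204 CPM with E2. Its group means, 534 ± 602 and 1946 ± 366 CPM in WT (SD, n = 2 each) and 2035 ± 908 and 645 ± 633 CPM in Het-Met mice (SD, n = 3 each), stood in the same direction as those of Capn11 and opposite to those of Nrep and Plxdc1. In bulk tissue, fewer cells of a type and less RNA per cell cannot be told apart.

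None of the 3 genes went the same way with Ttr in every group, taking the libraries with the most and the least Ttr. In vehicle-treated OVX WT mice replicate 3 had 8.86-fold the Ttr of replicate 1, and its Capn11 was 2.26-fold, its Nrep 0.977-fold and its Plxdc1 0.857-fold. In E2-treated OVX Het-Met mice replicate 1 had 6.73-fold the Ttr of replicate 3, and its Capn11 was 0.109-fold, its Nrep 0.970-fold and its Plxdc1 0.931-fold. Capn11 therefore went with Ttr in the first of these groups and against it in the second, while Nrep stayed within a few percent in both. The first rests on 9 and 19 reads of Capn11. Their Poisson 95% intervals overlapped (0.190 to 0.790 and 0.567 to 1.47 CPM). In every other group, Capn11 was lowest in the library richest in Ttr. In vehicle-treated OVX Het-Met mice replicate 1 had 2.32-fold the Ttr of replicate 2, with 0.780-fold the Capn11, 1.17-fold the Nrep and 0.881-fold the Plxdc1. In E2-treated OVX WT mice replicate 1 had 1.31-fold the Ttr of replicate 2 and 0.499-fold the Capn11, with 1.01-fold the Nrep and 1.02-fold the Plxdc1.

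For each 1000 reads of Ttr, Capn11 had from 0.286 reads (E2-treated OVX Het-Met replicate 1) to 17.7 reads (E2-treated OVX Het-Met replicate 3), so its lowest and its highest ratio stood in the same group. The library with the most Ttr, vehicle-treated OVX Het-Met replicate 1, had the lowest Capn11 of its group. The library with the least Ttr, vehicle-treated OVX WT replicate 1, was 9th of 10 in Capn11, 4th in Nrep and 3rd in Plxdc1.

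**Figure D2:**
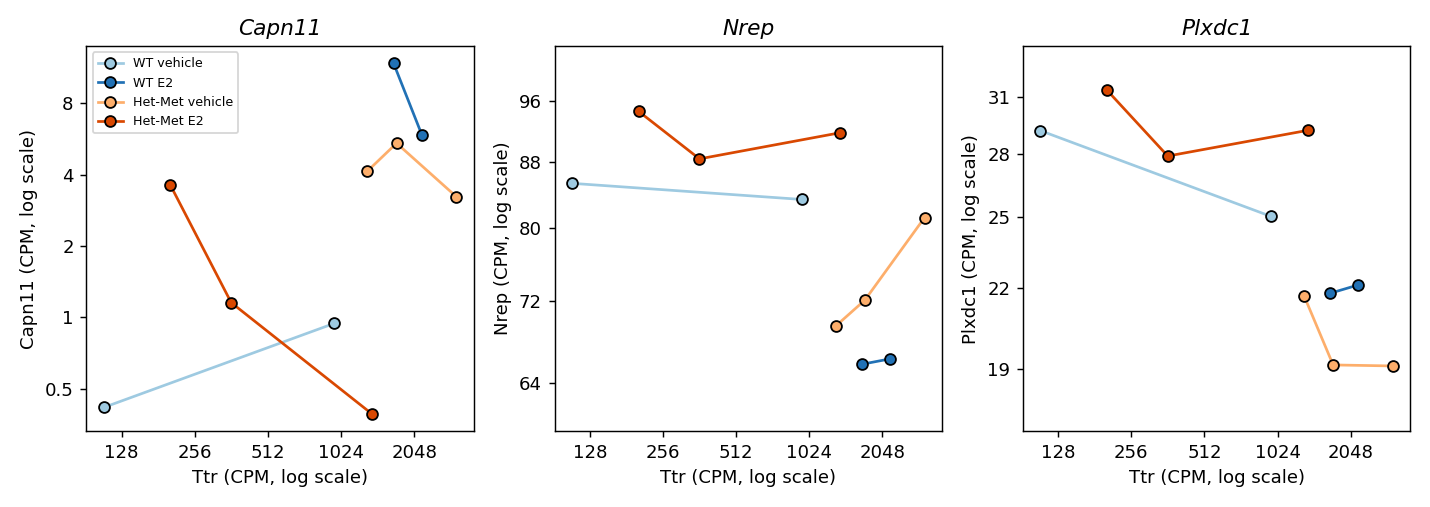
CPM of Capn11, Nrep and Plxdc1 against CPM of Ttr in the same library, both on log scales, with a point for each of 10 libraries and lines that join the libraries of 1 group in order of Ttr. Capn11 falls with Ttr among the E2-treated OVX Het-Met libraries (from 3.60 to 0.391 CPM) and rises in the vehicle-treated OVX WT pair (from 0.416 to 0.942 CPM), while the groups of Nrep lie at separate heights and those of Plxdc1 do so except for vehicle-treated OVX WT and E2-treated OVX Het-Met libraries, which overlap.

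The slope on Ttr within groups, from a limma fit of the 4 group means plus log2 Ttr, measures this over all 10 libraries apart from the group means. It was called for 28 of 15080 genes (0.186%), of which 27 were positive and 1 negative (0.179% and 0.00663%), and 550 genes had an unadjusted p under 0.05 (3.65%). None of the 3 genes was called by limma, edgeR or DESeq2 or had an unadjusted p under 0.05 in any of them with all libraries and no block. The slope of Capn11 was -0.24 log2 units for each log2 unit of Ttr (standard error 0.15, 95% interval -0.57 to 0.08, unadjusted p of 0.130 and adjusted p of 0.997 from limma). It moved with the libraries used. Without vehicle-treated OVX WT replicate 1 or replicate 3 it was -0.71. Either fit leaves 1 library in that group, which then adds nothing to the slope, so both give the same estimate. Without E2-treated OVX Het-Met replicate 1 the slope was 0.0061, and without replicate 3 of that group it was -0.036. With edgeR it was -0.48 (unadjusted p of 0.0521). The slope of Plxdc1 was -0.05 (95% interval -0.13 to 0.02, unadjusted p of 0.131 and adjusted p of 0.997 from limma), and that of Nrep was 0.01 (95% interval -0.05 to 0.07, adjusted p of 0.997 from limma).

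By contrast, 13 of the 14 choroid plexus markers other than Ttr were called, the exception being Calml4. Their slopes had a median of 0.53 and ran from 0.35 (Calml4) to 0.79 (Kcne2, a potassium channel subunit). With all libraries, the upper ends of the intervals of the 3 genes were 0.08 at most. The lower ends of those of all 14 markers were above this, the lowest being 0.17. Intervals with a library left out are not given here. Folr1, the folate receptor of this epithelium, had 0.70 and Aqp1, its water channel, had 0.66. Of the other 8 genes called in the interaction, none was called for the slope either. Slc2a12 had 0.19 (unadjusted p of 0.00221 from limma) and Wdr86 0.26 (unadjusted p of 0.00117 from limma), and Prelp, Foxj1, Fibcd1, Wdr63 and Igf2 ran from -0.01 to 0.12. A call in the interaction needs a spread within groups that is small for the size of that interaction. This also bears on how large a slope a called gene can have. The limit was wider for Capn11, with a residual SD of 0.746 log2 units, against 0.0739 for Nrep and 0.0993 for Plxdc1.

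**Figure D3:**
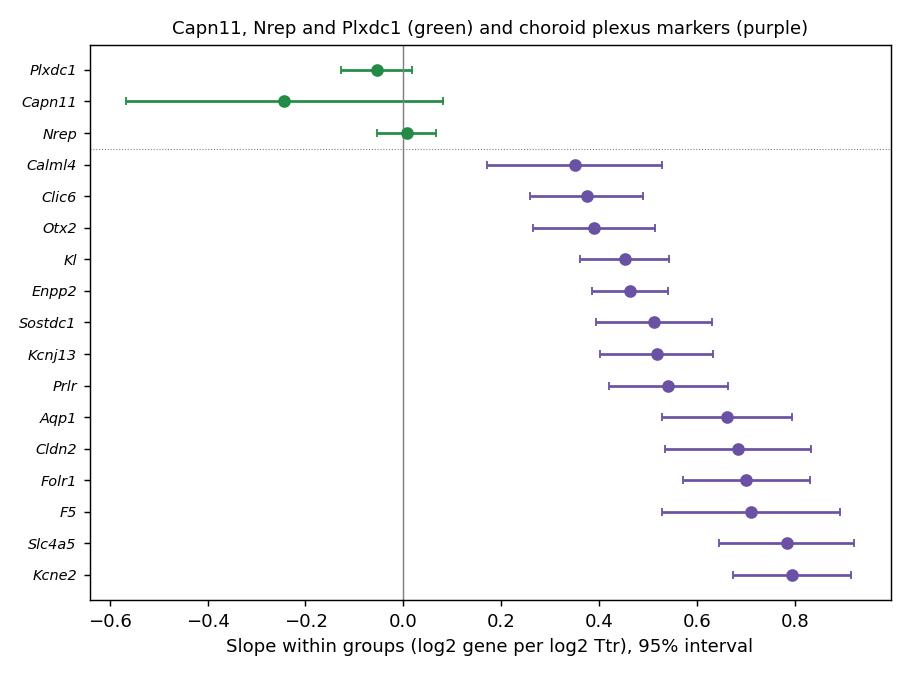
Slope of each gene on Ttr within groups (log2 units of the gene for each log2 unit of Ttr, horizontal axis), with points for the estimate and bars for the 95% interval from limma, for Capn11, Nrep and Plxdc1 (green) and 14 choroid plexus markers (purple). The intervals of the 3 genes include 0 and those of all 14 markers lie above 0, from 0.35 for Calml4 to 0.79 for Kcne2.

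At equal Ttr, the interaction was -5.43 for Capn11 (standard error 0.93), 0.68 for Nrep (standard error 0.17) and 0.59 for Plxdc1 (standard error 0.21), or 126%, 104% and 70.2% of the values without Ttr. The choroid plexus marker mean in place of Ttr gave -5.69, 0.68 and 0.60. With either covariate the standard errors were wider and none of the 3 genes was called. Since Ttr also differed between the groups, the covariate and the group means share part of their differences.

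All 15 choroid plexus markers, Ttr included, had a lower interaction at an unadjusted p under 0.05 (5.42% of all genes had such a p in either direction) and none was called by limma, with a median of -3.32 on the log2 scale against 0.01 over all genes. Their summed level ran from 362 to 1637 CPM in vehicle-treated and 2776 to 3737 CPM in E2-treated OVX WT libraries, and from 2151 to 4142 CPM in vehicle-treated and 537 to 2312 CPM in E2-treated OVX Het-Met libraries. Capn11 moved in the direction of this list between groups, and the part of the choroid plexus in its difference cannot be told apart from the groups.

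The ependyma, the ciliated lining of the ventricles, moved as well. Its 6 markers summed to 17.8 to 18.4 CPM in vehicle-treated and 32.5 to 34.2 CPM in E2-treated OVX WT libraries, and to 23.0 to 31.2 CPM in vehicle-treated and 19.6 to 22.8 CPM in E2-treated OVX Het-Met libraries. Of the 6 markers, 4 had a lower interaction at an unadjusted p under 0.05, and Foxj1, the master regulator of motile cilia, was called. With the mean of these markers as a covariate, an alternative chosen after seeing the data, the interaction was -3.22 for Capn11 (standard error 1.29), 1.00 for Nrep (standard error 0.18) and 0.80 for Plxdc1 (standard error 0.28). None of the 3 genes was called in that fit, and the Nrep value was over 1.5 times that without the covariate. The part of ependyma in the Capn11 difference was not tested.

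Other markers moved little with the groups. The 8 endothelial markers, named because Plxdc1 is known from vessels, summed to 226 to 254 and 208 to 213 CPM in OVX WT libraries and to 218 to 245 and 195 to 249 CPM in OVX Het-Met libraries with vehicle and E2, respectively. One of them had a higher interaction at an unadjusted p under 0.05. Of the 8 mural cell markers 2 had a lower one, with sums between 222 and 280 CPM in all libraries. The 6 markers of hippocampal excitatory neurons summed to between 5935 and 7520 CPM, so RNA of this list was present in every library. For the interaction, 0 of 6 passed an unadjusted p under 0.05 in limma. The 6 pituitary markers summed to between 2.42 and 210 CPM, both extremes being E2-treated OVX Het-Met libraries, and 0 of the 4 tested passed an unadjusted p under 0.05 for the interaction in limma. No marker of the other 5 lists above was at 0 in any library.

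The genes most like each of the 3 over the 10 libraries were taken by Pearson's r of log2(CPM + 0.5), with no test, since r here includes the group differences that chose the genes. Nearest to Capn11 were Ddo, which encodes D-aspartate oxidase (r = 0.932), Smim14 (r = 0.921), Tctex1d4, a dynein light chain gene (r = 0.899), Armc3 (r = 0.892) and Sfmbt1 (r = 0.879). They followed it over a smaller range: Ddo had means of 8.77 and 10.8 CPM with vehicle and E2 in WT mice and of 10.7 and 9.57 CPM in Het-Met mice, and its interaction was -0.44. None of the 5 is a choroid plexus marker of the list, and their r with Ttr was between 0.327 and 0.654. Tctex1d4 and Armc3 had interactions of -1.05 and -1.02, near the median of -1.08 of the ependyma markers. Those of Ddo, Smim14 and Sfmbt1 ran from -0.44 to -0.18. Whether these genes follow the ependyma was not tested.

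Nearest to Nrep were Rbm28, a gene of ribosome assembly (r = 0.935), Vsnl1, a neuronal calcium sensor gene (r = 0.935), Bivm (r = 0.923), Dus2, a tRNA-modifying enzyme gene (r = 0.915), and Apol7a (r = 0.908). Vsnl1 was the most abundant, with means of 519 and 464 CPM with vehicle and E2 in WT mice and of 482 and 551 CPM in Het-Met mice, an interaction of 0.36. The r of these 5 with Ttr was between -0.689 and -0.570. Among the nearest to Plxdc1 were Grm4, a metabotropic glutamate receptor gene (r = 0.955), Cckbr, a cholecystokinin receptor gene (r = 0.933), Cc2d2a (r = 0.931) and Cplx3, a regulator of vesicle release (r = 0.904). Grm4 had means of 21.8 and 18.6 CPM with vehicle and E2 in WT mice and of 17.4 and 23.2 CPM in Het-Met mice, an interaction of 0.64, while Cckbr had an interaction of 0.93 and Cplx3 one of 1.11. The r of these 4 with Ttr was between -0.794 and -0.749.

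Other genes of the same families and pathways were taken from 3 lists, and for the interaction 5.42% of all genes had an unadjusted p under 0.05 in either direction. Of 15 calpain family genes 11 were tested, and 0 were called for the interaction, the E2 effect or the genotype effect in limma. No calpain had an interaction at an unadjusted p under 0.05, and 1, Capn3, had an E2 effect at that level (-0.24, unadjusted p of 0.0490 from limma). Their interactions had a median of 0.07 and ran from -0.20 to 0.41, with the lowest unadjusted p at Capn2, a widely expressed calpain (0.20, unadjusted p of 0.0552 from limma). The 4 calpains with a mean under 0.5 CPM were Capn8, Capn9, Capn13 and Capns2.

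All 13 genes of the TGF-beta pathway and of translation listed with Nrep were tested, and 0 were called in any of the 3 contrasts in limma. At an unadjusted p under 0.05, 2 of the 13 had a lower interaction, Tgfbr3, a TGF-beta co-receptor gene (-0.42, unadjusted p of 0.00807 and adjusted p of 0.556 from limma), and Tgfb2, a TGF-beta ligand gene (-0.28). Both are opposite in sign to Nrep, and the list's median was 0.03. Smad4, a signal mediator of the pathway, had a lower genotype effect at that level (-0.13, unadjusted p of 0.0333 from limma). Of the 5 relatives and binding partners of Plxdc1, 0 were called in limma. At an unadjusted p under 0.05, 2 of the 5 had an interaction. Nid2, a basement membrane gene, had a lower interaction (-0.85, unadjusted p of 0.00167 and adjusted p of 0.252 from limma) and Serpinf1, the PEDF gene, a higher one (0.51, unadjusted p of 0.0258 from limma), and the list's median was 0.14. The closest relative, Plxdc2, had an interaction of 0.14 and an E2 effect of 0.13 (unadjusted p of 0.0361 from limma).

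The nearest tested genes beside each of the 3 had interactions that were not called. On either side of Capn11, Slc29a1 had -0.07 and Tmem63b, 0.846 kb away, had 0.04. Beside Nrep, Stard4 had 0.17 at a distance of 223 kb. Beside Plxdc1, B230217C12Rik had 0.08, and Arl5c, 3.13 kb away, had 0.65 (unadjusted p of 0.0547 and adjusted p of 0.919 from limma).

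How far the 3 genes held their place was examined with other settings and with each library left out. The interaction is the measure that chose the genes, and these fits reuse the same libraries. They describe how the choice depends on the settings and are no test of the 3 genes. The sign was the same in all 10 fits that left out 1 library. The interaction ran from -4.89 to -3.79 for Capn11, from 0.61 to 0.72 for Nrep and from 0.74 to 0.95 for Plxdc1. The calls of the 3 genes were less firm. All 3 were called with edgeR and with DESeq2, without vehicle-treated OVX WT replicate 3 and without E2-treated OVX Het-Met replicate 1. Nrep alone of the 3 was called without vehicle-treated OVX Het-Met replicate 1, and Capn11 alone without E2-treated OVX Het-Met replicate 3. None was called in the other 6 of these fits or when no filter on low values was used. With a mean of at least 2 CPM as the filter, Capn11 was the one still called.

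**Figure D4:**
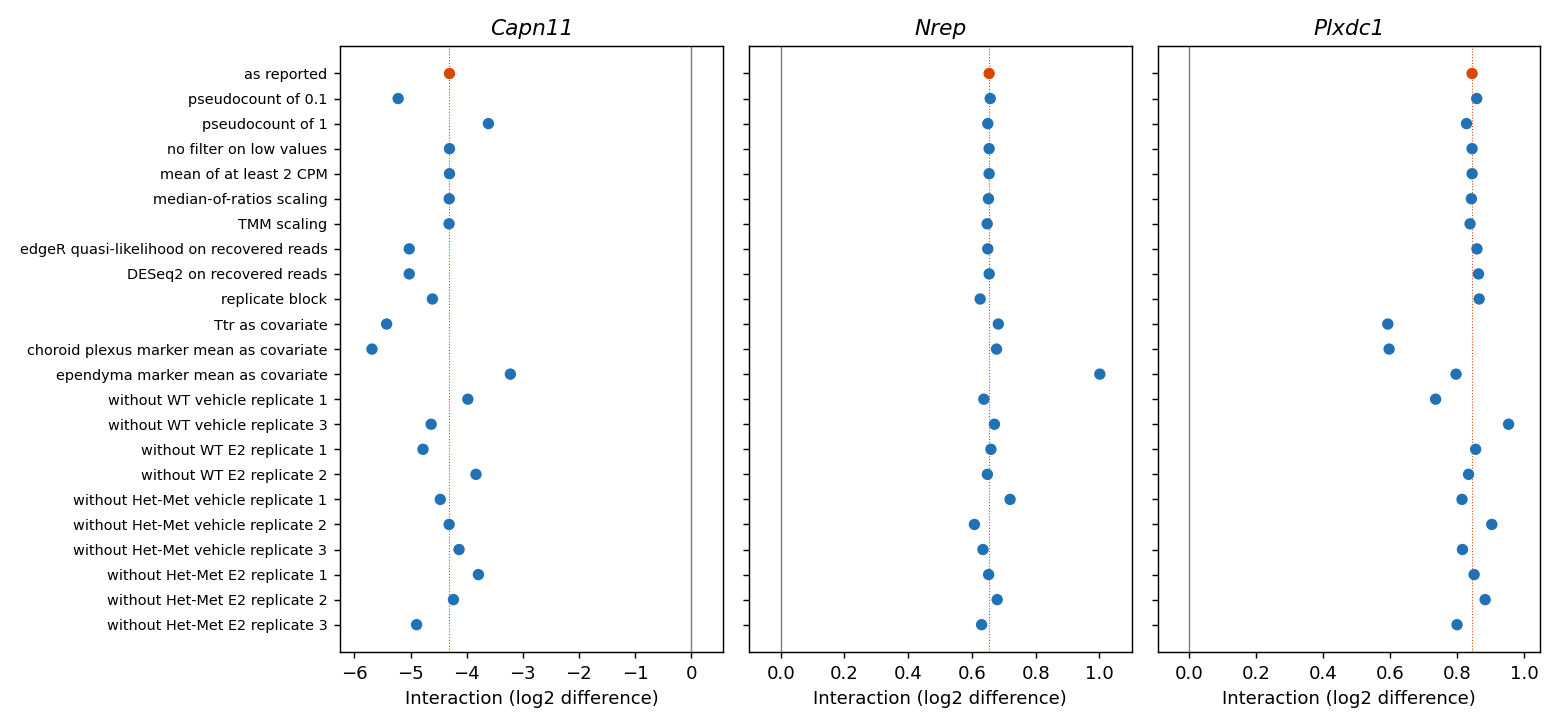
Interaction of Capn11, Nrep and Plxdc1 (log2 difference between the E2 effects of OVX Het-Met and OVX WT mice, horizontal axes) under each setting, with the value reported here in orange. Without covariates Capn11 lies between -5.22 and -3.61, Nrep between 0.63 and 0.66 and Plxdc1 between 0.83 and 0.87 over the settings that keep all libraries, and Plxdc1 is nearest to 0 with Ttr as a covariate (0.59).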

How the data were processed

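The mouse vHpc libraries were sequenced as 75-bp single-end reads from a stranded kit. Reads were trimmed, filtered and mapped by the authors with TopHat2 (mm10), and the deposited values are CPM per gene symbol. The counting tool's version, annotation and use of strand are not given in the sources used here. CPM were whole multiples of 1 read (tolerance 0.02 reads), which gave back 19820184 to 23267410 reads per library. One read was worth 0.0430 to 0.0505 CPM, so 3 reads were 0.129 to 0.151 CPM.

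Groups came from the sample labels. limma 3.58.1 in R 4.3.3 fitted 4 group means to log2(CPM + 0.5) of 15081 genes averaging 0.5 CPM or more, over all 10 libraries, with moderated variance and an intensity trend. Tests were two-sided. Calls needed a Benjamini-Hochberg adjusted p under 0.05 and a fold above 1.3, the latter not for the slope on Ttr. The E2 effect weighted WT by 0.4 and Het-Met by 0.6, and the genotype effect weighted both treatments by 0.5, so that neither was correlated with the interaction. A fold change on this scale understates low genes.

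The alternatives were pseudocounts of 0.1 and 1, no filter and a filter at 2 CPM, median-of-ratios and TMM scaling, edgeR 4.0.16 (quasi-likelihood) and DESeq2 1.42.0 on recovered reads, a replicate block, choroid plexus and ependyma covariates, and each library left out. The test was checked on simulated data. The members and lists were chosen with earlier results of these data known. Genes named are the 3 genes, Ttr, the other interaction genes, the 5 most alike genes, neighbours, and the genes of each list with the lowest p. Others were named after their values were seen. One gene that this rule names is not reported here. Libraries of a group differed by more than sampling noise (chi-square per degree of freedom 3.40 to 14.1). Replicates are pools of different animals, and whether they came from separate cohorts is not given. Gene models came from GENCODE vM21 and promoters from RefSeq. Figures used python 3.11.15 and matplotlib 3.10.9.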

Additional observations from a re-analysis of the deposited data

Results flagged for a closer look

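For Nrep and Plxdc1 every E2-treated library lay below every vehicle-treated library in OVX WT mice and above every vehicle-treated library in OVX Het-Met mice. The libraries of 1.09% of all genes were separate in this way. The E2 differences of the genotypes were thus opposite, with an interaction of 0.654 for Nrep and 0.845 for Plxdc1 on the log2 scale. This difference was not tested here, because it is the measure by which the genes were chosen. With groups of 2 and 3 libraries, no group was large enough to look for a single library far from the others.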

How the results depend on the processing

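The directions of the interaction of Capn11, Nrep and Plxdc1 were the same under every alternative run. This is a description, since the interaction in these libraries chose the genes. None of the 3 genes was called for the E2 effect, the genotype effect or the slope on Ttr in any alternative. The number of genes called for the interaction, 11 as reported, was 0 with no filter (1111 at an unadjusted p under 0.05 in limma), 5 with a mean of at least 2 CPM, 38 with DESeq2 and 13 with edgeR. With each library left out it ran from 0 to 71: it was 71 without E2-treated OVX Het-Met replicate 1, 46 without vehicle-treated OVX WT replicate 3, and 0 or 1 otherwise. Genes called for the E2 effect numbered 4 with DESeq2 and 0 to 1 with a library left out. Those for the genotype effect, 4 as reported, numbered 2 with no filter, 88 with DESeq2 and 1 to 86 with a library left out, 86 being without vehicle-treated OVX Het-Met replicate 2. Those for the slope on Ttr, 28 as reported, numbered 18 with no filter and 13 to 33 with a library left out, 13 being without E2-treated OVX Het-Met replicate 1. Some uncalled values of the 3 genes changed sign. The genotype difference of Capn11 was 0.13 with edgeR and 0.12 with DESeq2, and ran from -0.42 to 0.13 with a library left out, and that of Plxdc1 ran from -0.061 to 0.048. The slope on Ttr ran from -0.71 to 0.0061 for Capn11, the latter without E2-treated OVX Het-Met replicate 1, and from -0.0080 to 0.024 for Nrep. The causes were not tested. With the replicate number as a block the interaction was called for 18 genes, Capn11 alone of the 3, the slope of Nrep was -0.0037, and that of Capn11 was -0.22 (unadjusted p of 0.0307 and adjusted p of 0.931 from limma). The deviations of the 12 same-numbered pairs correlated between -0.172 and 0.0826. As deviations from means of 2 or 3 libraries over all genes, they cannot decide whether the numbers pair the libraries. Depth limits Capn11 most, with 8 reads in its lowest library.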
